A study of Homo sapiens with 7 samples.

Results

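The transcription factors GATA1 and GATA2, TAL1, KLF1, LYL1, NFE2 and GFI1B, the adaptors LMO2 and ZFPM1, and the nuclear protein HEMGN were followed in MEG-01 cells with and without knockdown of the RNA binding protein RBM15. They were chosen as regulators of the erythroid and megakaryocyte lineages, with earlier results of these data known. The genes were matched by symbol to the Ensembl identifiers of the deposited counts. They are 10 of 62238 counted genes, they hold 128 of 625148 exon bins, and 4 of them carry 5 of the 1515 deposited RIP-seq sites. MEG-01 is an established human megakaryoblastic leukemia cell line that was grown in RPMI1640 with 10% FBS and harvested in exponential phase at passage 5. All 7 libraries carry the label of lentiviral transgenes. RNA-seq was done on 1 control library, which has no knockdown label and whose vector the labels do not name, and on 2 stable knockdown lines, the first with shRBM15#1 and the second with shRBM15#2. RIP-seq, in which RNA bound to a protein is precipitated with an antibody and sequenced, was done on 4 libraries, of which 2 are labelled normal immunoglobulin (IgG) and 2 are labelled RBM15 antibody. The question was which of these regulators change in amount or exon use when RBM15 is reduced, and at which of their introns the deposited RIP-seq list holds a site.

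Erythroid cells and megakaryocytes arise from a shared progenitor, and a common set of DNA binding proteins drives both fates. GATA1 binds GATA motifs with its cofactor ZFPM1 (FOG1), and it joins TAL1, a basic helix-loop-helix protein, through the bridging adaptor LMO2. GATA2 precedes GATA1 in progenitors, LYL1 is the close relative of TAL1, KLF1 drives erythroid genes such as the globins, NFE2 drives globin and platelet genes, GFI1B is a repressor needed in both lineages, and HEMGN (hemogen) is a nuclear protein of erythroid cells. GATA1 is made in a full-length form and in a short form. The short form lacks the N-terminal activation domain and arises when exon 2, which holds the first start codon, is skipped.

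The sequence of GATA1 exon 2 shows what the short form loses, with its start codon in capitals. It lies on the plus strand at chrX:48649498-48649736 (GRCh37), is 239 bases long, and holds 19 bases before the ATG and 220 coding bases.
GATA1 exon 2: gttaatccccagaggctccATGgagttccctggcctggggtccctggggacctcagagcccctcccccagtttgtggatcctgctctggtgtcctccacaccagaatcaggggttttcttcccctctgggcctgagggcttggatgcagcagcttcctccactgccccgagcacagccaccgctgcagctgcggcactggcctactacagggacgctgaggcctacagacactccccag
No ATG occurs in the 73-base bin of exon 1 upstream of it. The next ATG in the same reading frame is 30 bases into exon 3 and is codon 84 of the full-length frame. The RNA of both forms differs at the junction that follows exon 1, where capitals mark the first 15 bases of the joined exon.
Exon 1 joined to exon 2: caaccaccagcccagGTTAATCCCCAGAGG
Exon 1 joined to exon 3: caaccaccagcccagTCTTTCAGGTGTACC
The files hold reads per exon bin and no reads per junction, so the short form was followed only through the share of GATA1 reads on exon 2.

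The 5 RIP-seq sites of the regulators lie in GATA1 (2 sites), GFI1B, LYL1 and TAL1. The central 150 bases of each are shown from the reference genome, in the sense direction of the strand given for the site. The strand and position of the reads were not examined. Capitals mark runs of 6 or more pyrimidines (C or T).
GATA1 intron 1, chrX:48645637-48645786, plus strand: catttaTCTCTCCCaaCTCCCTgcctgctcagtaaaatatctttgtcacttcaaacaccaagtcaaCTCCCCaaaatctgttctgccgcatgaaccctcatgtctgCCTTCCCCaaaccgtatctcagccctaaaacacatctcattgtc
GATA1 before its last exon, chrX:48651835-48651984, plus strand: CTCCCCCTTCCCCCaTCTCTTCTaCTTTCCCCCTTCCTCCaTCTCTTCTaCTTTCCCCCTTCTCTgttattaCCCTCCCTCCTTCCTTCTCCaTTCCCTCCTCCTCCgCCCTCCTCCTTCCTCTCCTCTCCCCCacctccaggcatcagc
GFI1B before its last exon, chr9:135865660-135865809, plus strand: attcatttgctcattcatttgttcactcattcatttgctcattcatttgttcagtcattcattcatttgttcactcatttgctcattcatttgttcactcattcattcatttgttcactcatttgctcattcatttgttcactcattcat
LYL1 before its last exon, chr19:13210957-13211106, minus strand: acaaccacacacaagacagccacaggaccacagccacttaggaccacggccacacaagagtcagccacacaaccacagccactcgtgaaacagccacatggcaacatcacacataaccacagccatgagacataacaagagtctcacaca
TAL1, chr1:47689240-47689389, minus strand: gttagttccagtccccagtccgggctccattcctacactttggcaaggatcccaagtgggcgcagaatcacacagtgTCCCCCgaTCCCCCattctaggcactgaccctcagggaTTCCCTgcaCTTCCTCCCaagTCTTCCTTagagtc
The second GATA1 window is a nearly unbroken pyrimidine tract, the GFI1B window is a tandem repeat of short T-rich units, and the LYL1 window is rich in A and C.

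Reads on exon bins numbered 53230029 in the control, 41629454 in shRBM15#1 and 52458857 in shRBM15#2. Lines that name no gene held 32.0% of the reads of the shRBM15#1 library, against 23.2% and 23.5% in the control and shRBM15#2 libraries, and the part of this difference in the results was not tested. RBM15 itself had 80.2 CPM (read counts scaled by library size, as counts per 1000000) in the control library, 43.7 in shRBM15#1 and 40.7 in shRBM15#2, a log2 fold change of -0.93 ± 0.23 (SE) with an adjusted p of 0.091 in edgeR's quasi-likelihood test. Of the markers that define the labelled cell type, ITGA2B had 45463, 21287 and 31658 reads in control, shRBM15#1 and shRBM15#2, whereas PF4 had 3, 4 and 2 and GP9 had 2, 2 and 5. The summed level of 5 erythroid markers was 878, 4179 and 4140 CPM in the same order, and that of 5 megakaryocyte markers was 924, 492 and 658 CPM. Summed markers of T cells (3 genes), B cells (3) and neutrophils (4) were between 1.05 and 9.80 CPM in every library, those of monocytes (4, mostly LYZ) between 28.1 and 56.9 CPM, and those of fibroblasts or epithelium (4, mostly EPCAM and KRT18) between 93.6 and 133 CPM. None of the 28 markers was at 0 in all libraries, and the part of other cell types in the results was not tested.

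Of the 10 regulators, only HEMGN, about 14-fold higher with knockdown of RBM15, passed the test, and the other 9 did not. Not passing does not mean unchanged, since RBM15 itself, lower in both lines, did not pass (adjusted p = 0.091, edgeR). At an unadjusted p under 0.05 in edgeR, KLF1, GFI1B and TAL1 were also higher and LYL1 was lower, each in both lines. A gene was called when its p in edgeR, adjusted by the Benjamini-Hochberg method over all 24887 genes that had at least 30 reads over the libraries, was under 0.01. All 10 regulators passed this filter. Of them 1 was called, whereas 0.346% of all genes tested were called, 0.0683% as higher and 0.277% as lower. At an adjusted p under 0.05 it was again 1 of 10, against 1.74% of all genes, and at an unadjusted p under 0.05 it was 5 of 10, against 18.8% of all genes. Since the regulators were chosen with earlier results known, these shares, and those of bins below, are descriptions. The fitted change was above 0 for 7 regulators and below 0 for 3, with a median of 0.28 on the log2 scale against 0.02 over all genes tested. In all 10, both knockdown libraries lay on the same side of the control. Both lines share that 1 control library, so this is not an independent check, and the share over all genes was not counted. For LMO2 it rests on 162 CPM in control against 163 in shRBM15#1. With 1 control, the spread was estimated from both knockdown lines alone, and the p-values measure only the spread between these libraries. In bulk RNA, more cells that express a gene and more RNA per cell cannot be told apart.

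Levels of different genes are compared per length, as CPM per kilobase of summed exon bins. In the control library the order from the highest was NFE2 (72.1), LYL1 (65.0), LMO2 (52.0), GATA1 (47.8), TAL1 (41.4), KLF1 (32.8), GATA2 (11.4), GFI1B (6.86), ZFPM1 (1.82) and HEMGN (1.48). NFE2 was the highest of the 10 in all 3 libraries. LYL1 was number 2 in the control library, 6 in shRBM15#1 and 5 in shRBM15#2, and KLF1 was number 6, 2 and 4. In the knockdown lines the ranges of TAL1 (60.8 and 70.0), KLF1 (72.7 and 59.1) and LMO2 (52.5 and 69.0) overlapped, as did those of LYL1 (32.5 and 45.7) and GATA1 (42.8 and 44.03). The range of GFI1B (11.8 and 22.3) held those of GATA2 (12.6 and 12.2) and HEMGN (21.7 and 20.02), so these neighbours could not be ordered. The order of neighbours in the control library has no replicate check.

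**Figure D1:**
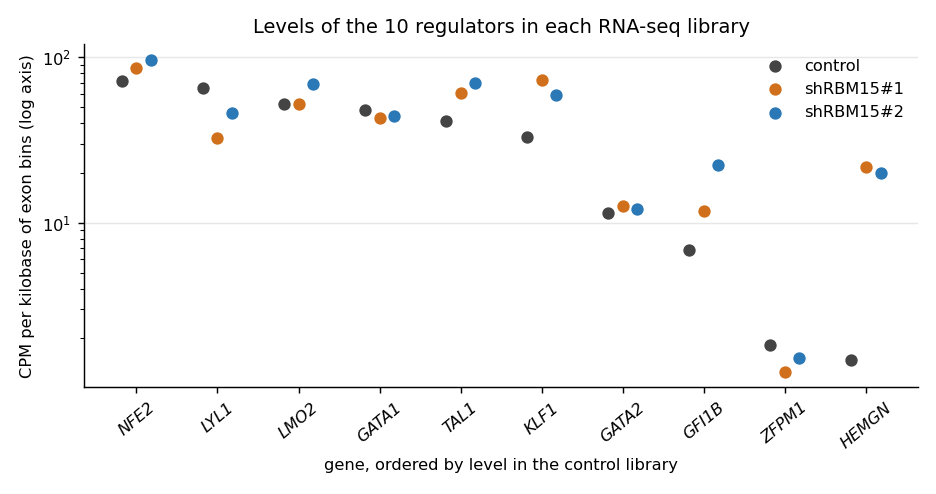
Level of each regulator in the control, shRBM15#1 and shRBM15#2 libraries, as CPM per kilobase of exon bins on a log axis, 1 point per library. HEMGN stands at 1.48 in the control library and at 21.7 and 20.02 in the knockdown lines, while GATA1 and GATA2 differ little between the 3 libraries.

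Among the GATA factors, GATA1 (ENSG00000102145, chrX:48644962-48652718, plus strand) had 3550 reads in the control library, 2873 in shRBM15#1 and 3446 in shRBM15#2, or 71.7, 64.2 and 66.0 CPM. Both knockdown values were slightly below the control, and the log2 fold change of -0.14 ± 0.22 (SE) did not pass the test (adjusted p = 0.78, edgeR). GATA2 (ENSG00000179348, chr3:128198270-128212028, minus strand) had 50.9 CPM in control, 56.2 in shRBM15#1 and 54.4 in shRBM15#2. Its log2 fold change was 0.12 ± 0.23 (adjusted p = 0.83, edgeR), so the difference was smaller than its error. ZFPM1 (ENSG00000179588, chr16:88519725-88603424, plus strand), the cofactor of GATA1, had 531, 332 and 467 reads, and with 10.7, 7.42 and 8.95 CPM it had the lowest level per length in both knockdown lines. Its log2 fold change was -0.39 ± 0.32 (adjusted p = 0.55, edgeR).

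In the complex around TAL1, TAL1 (ENSG00000162367, chr1:47681962-47697892, minus strand) had 11681 reads in control, 15529 in shRBM15#1 and 20832 in shRBM15#2, or 236, 347 and 399 CPM. Both lines were above the control, with a log2 fold change of 0.66 ± 0.23 that did not pass the test (adjusted p = 0.19, edgeR). Its relative LYL1 (ENSG00000104903, chr19:13209847-13213975, minus strand) was on the other side, with 203 CPM in control, 101 in shRBM15#1 and 143 in shRBM15#2. The log2 fold change of LYL1 was -0.73 ± 0.26 (adjusted p = 0.19, edgeR). LMO2 (ENSG00000135363, chr11:33880122-33913836, minus strand), which bridges TAL1 or LYL1 to GATA factors, had 162 CPM in control and 163 in shRBM15#1, and only shRBM15#2, with 215, stood apart. Its log2 fold change was 0.23 ± 0.25 (adjusted p = 0.67, edgeR).

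Among the lineage factors, KLF1 (ENSG00000105610, chr19:12995237-12997995, minus strand) had 2585 reads in control, 5183 in shRBM15#1 and 4905 in shRBM15#2. With 52.2, 116 and 94.0 CPM, both lines were well above the control, but the log2 fold change of 1.01 ± 0.25 did not pass the test (adjusted p = 0.096, edgeR). GFI1B (ENSG00000165702, chr9:135820932-135867083, plus strand) had 837, 1298 and 2869 reads, or 16.9, 29.0 and 55.0 CPM. The lines differed from each other by a factor of 1.90, and the log2 fold change of 1.31 ± 0.39 did not pass (adjusted p = 0.14, edgeR). NFE2 (ENSG00000123405, chr12:54685895-54694905, minus strand), the most abundant of the 10 per length, had 178, 212 and 239 CPM and a log2 fold change of 0.34 ± 0.23 (adjusted p = 0.45, edgeR).

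HEMGN (ENSG00000136929, chr9:100689073-100707138, minus strand) rose from 160 reads in the control library to 2132 in shRBM15#1 and 2290 in shRBM15#2. In CPM these were 3.23, 47.6 and 43.9, so both lines were far above the control and close to each other. The log2 fold change was 3.82 ± 0.31 (SE), which is 14.1-fold, with an adjusted p of 0.0020 in edgeR's quasi-likelihood test. In the control library its CPM was above that of 52.0% of the genes tested, while LMO2, NFE2, LYL1 and TAL1 were above 94.7%, 95.3%, 96.1% and 96.9% of them. When only genes with at least 300 reads were tested, the log2 fold change was 3.97 and the adjusted p was 0.018, past the limit of 0.01.

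**Figure D2:**
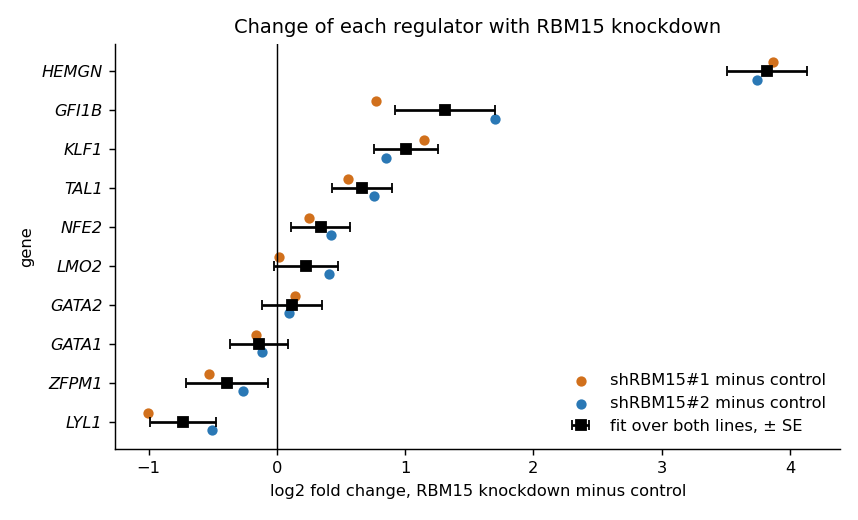
Log2 fold change of each regulator, RBM15 knockdown minus control, from the edgeR fit over both lines with its standard error (squares and bars) and for each line alone (points). HEMGN stands alone at 3.82, the lines are farthest apart for GFI1B, and the bar of GATA1 spans 0.

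The 3 genes whose changes in both lines lay closest to those of HEMGN, among 14997 tested genes with a symbol and at least 1 CPM on average, were HBA2, SLC7A8 and PLVAP. HBA2, an alpha globin gene, had 1.31 CPM in control, 21.2 in shRBM15#1 and 19.1 in shRBM15#2, at a Euclidean distance of 0.13 log2 units from HEMGN over the 2 differences. SLC7A8, an amino acid transporter, had 0.849, 12.6 and 10.3 CPM (distance 0.20). PLVAP, known as a protein of endothelial vesicles, had 0.222, 3.13 and 3.89 CPM (distance 0.32). HBA2 has a near-identical copy, HBA1, so reads may be split between them. The 3 values share their libraries with HEMGN, and the likeness is a description.

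The 4 tested exon bins of HEMGN went up with the gene, and none was called relative to it. Bin 2, which is coding, had 96 reads in control, 1281 in shRBM15#1 and 1426 in shRBM15#2, and bin 4, the most upstream coding bin, had 13, 157 and 145. Bin 5, the annotated first exon, had 0, 2 and 1. In the knockdown lines bin 4 held 1.17 and 1.08 reads per base and bin 5 held 0.0225 and 0.0112, so nearly all reads lay on the 4 downstream bins. RefSeq has a promoter window at each end, from 250 bases before to 50 after an annotated start. The window whose start lies within bin 4 is shown, since it is the one beside the bins with reads, with GATA motifs (AGATAA or TGATAA) in capitals.
HEMGN, chr9:100700405-100700704, minus strand: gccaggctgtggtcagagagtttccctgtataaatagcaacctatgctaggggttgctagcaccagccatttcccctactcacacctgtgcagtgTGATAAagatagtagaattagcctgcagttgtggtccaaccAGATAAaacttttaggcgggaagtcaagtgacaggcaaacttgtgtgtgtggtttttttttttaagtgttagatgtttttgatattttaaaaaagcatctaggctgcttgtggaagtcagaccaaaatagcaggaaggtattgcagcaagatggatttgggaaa
It holds 1 AGATAA and 1 TGATAA, and the window at bin 5 holds 1 TGATAA. Of the 35116 promoter windows of the same length, 10.3% hold AGATAA on either strand, 7.53% hold TGATAA and 16.3% hold at least 1 of them. Of 12 windows matched for 8 of the regulators, 6 hold at least 1. These are HEMGN (both), KLF1, LYL1, GFI1B (the window at bins 6 and 7) and TAL1 (the more upstream window). An E-box (CANNTG) is present in 7 of the 12 windows and in 68.7% of all, CCNCGCCC in 3 of 12 and 30.8%, and CCNCACCC in 1 of 12 and 18.3%, where the last 2 are letters that KLF factors can bind. No window was found for LMO2 or NFE2.

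The use of exons was tested per bin, as the change of a bin relative to its gene, with diffSpliceDGE in edgeR. Bins were called at an unadjusted p under 0.05 and a relative fold above 1.2 among 234192 bins with at least 30 reads. Of the 128 bins of the regulators, 106 were tested and 5 were called (4.72%), against 1.45% of all bins. All 5 were used less with knockdown, against 0.787% of all bins called lower, and in all 5 an annotated transcript of TAL1 or GATA2 begins. This feature was noticed after the calls, and its share over all bins was not counted. Other tested bins where a transcript begins were not called and went either way, such as LMO2 bin 14 (relative log2 fold change 0.69) and GATA2 bin 14 (-0.65). At an adjusted p under 0.05 none of the 106 was called, against 0.0205% of all bins, so no single bin passed the correction. At an unadjusted p under 0.05 alone it was 5, and the DEXSeq-type model in DESeq2 gave 0 at an adjusted p under 0.05. No bin of GATA1, KLF1, LMO2, LYL1, NFE2, GFI1B, ZFPM1 or HEMGN was called.

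The 3 called bins of TAL1 are the first exons of 1 annotated transcript each, of 7 in all, at the 5′ end of the gene. Bin 17 (chr1:47697329-47697387) had 122 reads in control, 62 in shRBM15#1 and 117 in shRBM15#2, while TAL1 as a whole had more reads in both lines than in control. Its share of TAL1 reads was 1.04% in control (95% Wilson interval 0.875% to 1.25%), 0.399% in shRBM15#1 (0.312% to 0.511%) and 0.562% in shRBM15#2 (0.469% to 0.673%). Neither knockdown interval reached that of the control, but the intervals cover counting error only, and the bin was picked by its p. The relative log2 fold change was -1.10 ± 0.32 (SE implied by its p), with an adjusted p of 0.52 in edgeR. Bin 16 (chr1:47696719-47696890) had 126, 87 and 133 reads and a relative log2 fold change of -0.84 ± 0.31. Bin 18 (chr1:47697839-47697892) had 29, 20 and 13 reads and one of -1.42 ± 0.52. The 3 bins together, a group formed after their values were seen, held 2.37% of TAL1 reads in control, 1.09% in shRBM15#1 and 1.26% in shRBM15#2. In CPM these were 5.60, 3.78 and 5.04, so their sum was below the control in both lines while the gene as a whole was above it. This did not hold for each bin. In shRBM15#2, bin 16 had 133 reads against 126 in control, and bin 17 had 117 against 122. The last 2 large bins, 3 and 4, held 86.4%, 86.9% and 87.8% of the reads.

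The promoter window at bin 17 is shown with the 50 bases inside the bin in capitals. It holds none of the 5 motifs searched.
TAL1, chr1:47697338-47697637, minus strand: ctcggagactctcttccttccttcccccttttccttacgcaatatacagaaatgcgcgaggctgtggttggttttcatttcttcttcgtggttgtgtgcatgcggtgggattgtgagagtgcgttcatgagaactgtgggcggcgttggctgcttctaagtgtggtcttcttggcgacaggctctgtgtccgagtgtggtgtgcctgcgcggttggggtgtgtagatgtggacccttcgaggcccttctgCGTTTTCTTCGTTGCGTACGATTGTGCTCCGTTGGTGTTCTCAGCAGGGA
Bins 11 to 15 of TAL1, which hold non-coding 5′ exons, had 0 reads in all 3 libraries. They lie under an exon of ENSG00000226252 on the opposite strand, whose bin from 47692835 to 47696422 had 748, 819 and 1220 reads. Without strand information, reads of the gene and its antisense partner cannot be told apart, so the first exons within this stretch were not measured, although their length counts in the level per kilobase, and bin 10 is overlapped in part by another exon of the same gene.

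In GATA2 the called bins are also upstream first exons. Bin 15 (chr3:128209143-128209491), the first exon of 1 of 6 transcripts, had 89 reads in control, 47 in shRBM15#1 and 61 in shRBM15#2, with a relative log2 fold change of -0.82 ± 0.35. Bin 17 (chr3:128211742-128212016) had 45, 15 and 33 reads and one of -1.02 ± 0.45. Bins 16 and 18 between and above them had values of -0.73 and -0.97 and were not called. Together, bins 15 to 18 held 8.13% of GATA2 reads in control (95% Wilson interval 7.13% to 9.27%), 4.01% in shRBM15#1 (3.31% to 4.85%) and 5.01% in shRBM15#2 (4.26% to 5.87%). In CPM they had 4.14, 2.26 and 2.72. The downstream first exons (bins 12 to 14) held 3.85%, 3.34% and 5.39%, with the lines on either side of the control. This grouping was also made after the values were seen, and its intervals cover counting error only.
The promoter window at bins 17 and 18 is shown, with the 34 bases inside the bins in capitals. It holds none of the 5 motifs searched.
GATA2, chr3:128211995-128212294, minus strand: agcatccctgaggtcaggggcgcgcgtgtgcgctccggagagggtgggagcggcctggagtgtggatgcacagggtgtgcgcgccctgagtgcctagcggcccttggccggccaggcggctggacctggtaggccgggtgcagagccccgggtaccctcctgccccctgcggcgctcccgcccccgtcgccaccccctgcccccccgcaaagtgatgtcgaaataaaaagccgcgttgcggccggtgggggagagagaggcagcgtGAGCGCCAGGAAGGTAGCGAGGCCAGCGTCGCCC

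**Figure D3:**
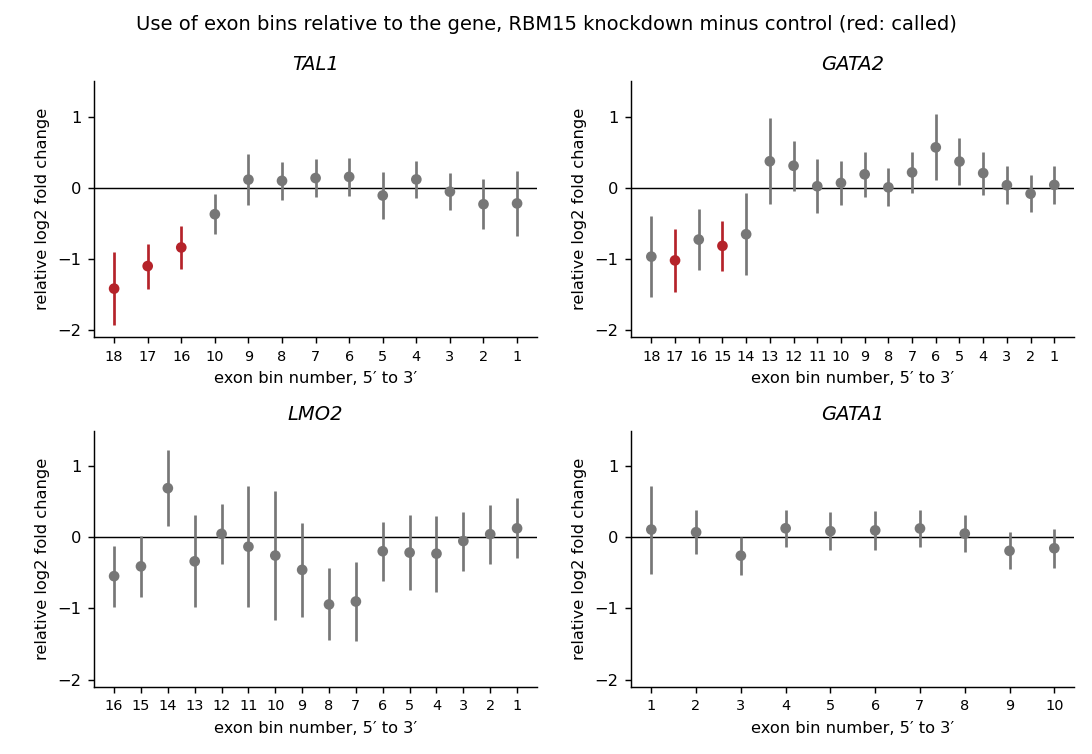
Relative log2 fold change of each tested exon bin of TAL1, GATA2, LMO2 and GATA1, knockdown minus control, with the standard error implied by its p and bins in 5′ to 3′ order. Red points are called bins: TAL1 18, 17 and 16 and GATA2 17 and 15, at the 5′ end of both genes, while GATA1 bins lie between -0.26 and 0.13.

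Exon 2 of GATA1 (bin 3), the exon that the short form lacks, had 340 reads in control, 229 in shRBM15#1 and 278 in shRBM15#2. Its share of GATA1 reads was 9.58% in control (95% Wilson interval 8.65% to 10.6%), 7.97% in shRBM15#1 (7.04% to 9.02%) and 8.07% in shRBM15#2 (7.204% to 9.02%). Both lines were below the control and close to each other, but their intervals overlapped with that of the control. The mean of the lines was 8.02% ± 0.0683 (SD, n = 2), which is -1.56 percentage points from the control. The relative log2 fold change of -0.26 ± 0.27 was smaller than its error and was not called. Per base, exon 2 had 0.835 times the reads of exon 3 in control, 0.640 times in shRBM15#1 and 0.639 times in shRBM15#2. The intervals cover counting error only.

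In the other regulators the upstream exons gave a mixed picture. The most upstream exon of LMO2 (bin 16, chr11:33913342-33913836) held 5.04% of its reads in control, 1.98% in shRBM15#1 and 4.63% in shRBM15#2, so that only 1 line was low (relative log2 fold change -0.55 ± 0.43, not called). LMO2 bins 7 and 8, further downstream, where no annotated transcript begins, had relative log2 fold changes of -0.90 and -0.94 and were not called. A DEXSeq-type model in DESeq2 called both, at -0.92 and -0.97. In GFI1B the 5 most upstream bins held 8, 6 and 10 reads and bins 6 and 7 held 64, 121 and 261, so its reads began at the downstream start in every library. KLF1, which has 1 annotated transcript with 3 bins, had relative changes between -0.07 and 0.06, and the 12 bins of NFE2 lay between -0.22 and 0.24.

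Before the RIP-seq values, the labels need a remark. Among the libraries labelled normal IgG, the second had 21.5 times the reads of the first over the 1515 sites, and among those labelled RBM15 antibody, the second had 28.0 times the reads of the first. All 1515 sites had more reads in the second library, under either label. The libraries therefore divided into a low and a high pair that cuts across the labels, so each count is given under its label, and no comparison of the antibodies was made and no direction drawn. The deposited list holds only sites that passed the authors' own comparison, and the total depth of these libraries is unknown here.

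GATA1 has a site in intron 1, chrX:48645327-48646095, which begins 273 bases after exon 1 and ends 3402 bases before exon 2. It had 43 reads in the library labelled normal IgG 1, 1226 in that labelled normal IgG 2, 41 in that labelled RBM15 antibody 1 and 1915 in that labelled RBM15 antibody 2. It was number 82 of the 1515 sites by reads in the second IgG-labelled library and number 65 in the second library labelled RBM15 antibody, the highest among the regulators. The second GATA1 site, chrX:48651754-48652064, lies between bins 7 and 8, 49 bases after the one and 135 before the other. It had 14, 232, 18 and 422 reads in the same order and was number 672 and 488 in the second libraries. The LYL1 site, chr19:13210826-13211237 on the minus strand, lies before the last exon, 233 bases after bin 2 and 277 before bin 1, and had 20, 838, 20 and 919 reads. The GFI1B site, chr9:135865532-135865937, lies between the last coding exons, 237 bases after bin 13 and 321 before bin 14, and had 6, 286, 5 and 393 reads. The TAL1 site, chr1:47689122-47689507 on the minus strand, begins 168 bases after bin 6 and had 25, 293, 25 and 404 reads. It is annotated to an intron in the deposited list and overlaps bin 5, a non-coding exon of 1 of 7 transcripts, by 170 bases. In each of the 5, both first libraries were low and both second libraries were high, as in the list as a whole.

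**Figure D4:**
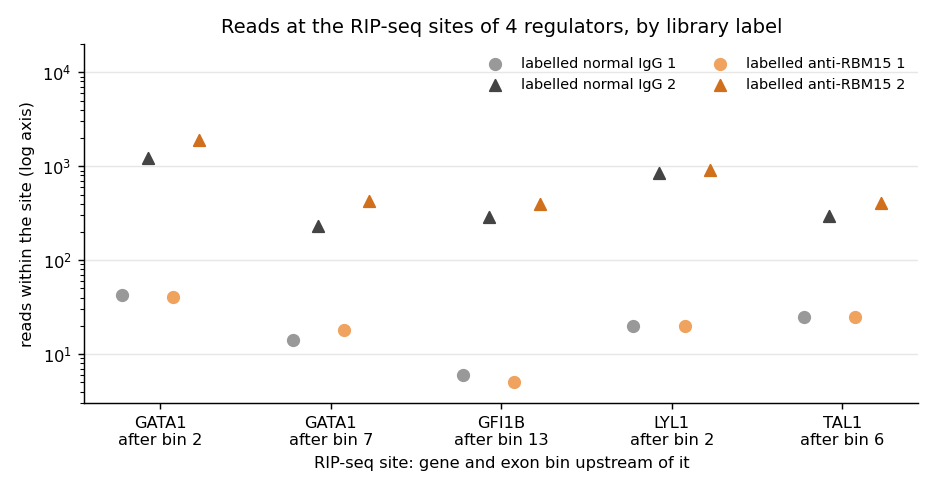
Reads within each of the 5 RIP-seq sites in the 4 libraries, on a log axis, with the libraries named by their labels and the sites by gene and the exon bin upstream. At every site the libraries labelled normal IgG 1 and RBM15 antibody 1 lie at 43 reads or fewer and those labelled normal IgG 2 and RBM15 antibody 2 at 232 or more.

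No exon bin beside a site was called. Of all bins tested 1.45% were called, a share at which so few bins would rarely hold a call, so no conclusion is drawn. Next to the TAL1 site, bin 6 had 399 reads in control, 626 in shRBM15#1 and 745 in shRBM15#2 (relative log2 fold change 0.15 ± 0.26), and bin 5 had 76, 100 and 118 (-0.11 ± 0.34). The relative log2 fold changes of the bins on either side were 0.07 and -0.26 at the first GATA1 site, 0.13 and 0.05 at the second, 0.23 and -0.11 at the GFI1B site and 0.11 and -0.06 at the LYL1 site. The called TAL1 bins lie upstream of its site, and GATA2, with the other called bins, has no site in the list. HEMGN, the only regulator called, has none either, and the share of all called genes with a site was not counted.

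The sites differ in base composition. Over 752 intronic sites with a strand, the central 150 bases held a median of 61.3% C and T (quartiles 53.3% and 69.3%). The second GATA1 site held 89.3%, of which 54.7% was C, and 0.798% of intronic sites held more. GFI1B held 74.0%, with 50% T, and the first GATA1 site 64.7%. TAL1 held 60.7% and LYL1 44.7%, with 40% A, and 91.8% of intronic sites held more C and T than LYL1. The longest pyrimidine run was 26 bases in the second GATA1 window, 9 in TAL1, 8 in the first GATA1 window, 4 in LYL1 and 3 in GFI1B, against a median of 7 over the intronic sites. Neither GGACT, the core of the consensus for N6-methyladenosine, nor TTTTT is present in any of the 5 windows on the sense strand. They are present in 3.99% and 9.97% of the intronic windows.

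**Figure D5:**
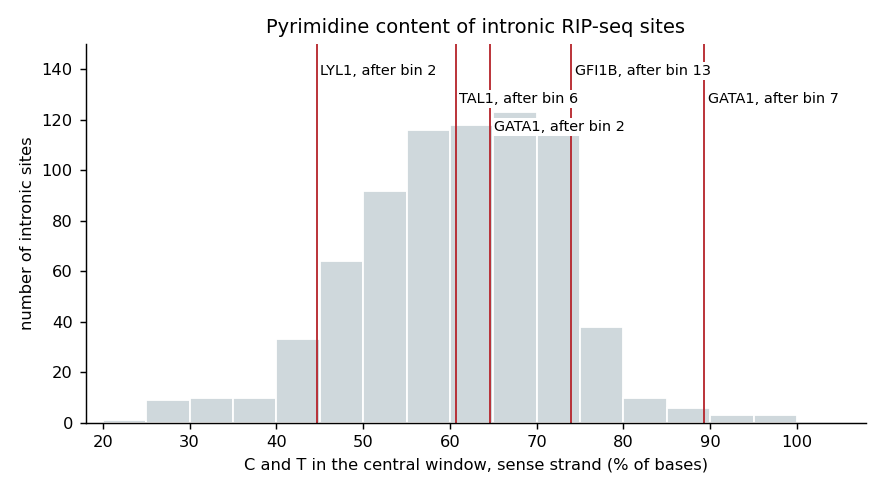
Number of the 752 intronic RIP-seq sites by the percentage of C and T in their central 150 bases on the sense strand (bars, 5 percentage points each), with red lines for the 5 sites of the regulators. The second GATA1 site, at 89.3%, lies at the upper end and LYL1, at 44.7%, toward the lower end.

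Genes that these regulators are known to control were counted in lists. Of 38 erythroid genes, 37 were tested and 5 were called, all higher, which is 13.5% against 0.346% of all genes. At an adjusted p under 0.05, 10 were called higher and none lower. The fitted change was above 0 in 32 and below 0 in 5, with a median of 1.07 on the log2 scale against 0.02 for all genes tested. HBE1, the embryonic beta-like globin, had 362 CPM in control, 3326 in shRBM15#1 and 3021 in shRBM15#2 (log2 fold change 3.13 ± 0.26, adjusted p = 0.0020, edgeR). The fetal globin HBG2 had 707, 3541 and 3488 CPM (2.31 ± 0.25, adjusted p = 0.0049) and its near-identical neighbour HBG1 had 116, 529 and 539 (2.21 ± 0.25, adjusted p = 0.0055), between which reads may be split. HBA2 had a log2 fold change of 3.94 ± 0.37 (adjusted p = 0.0032, edgeR). ALAS2, the first enzyme of heme synthesis in erythroid cells, rose from 6.47 CPM to 40.5 and 33.2 (2.51 ± 0.31, adjusted p = 0.0085, edgeR).

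Of 27 megakaryocyte genes, 26 were matched, 22 were tested and 1 was called, which is 4.55% against 0.346% of all genes. TUBB1, the platelet beta-tubulin, rose from 1.05 CPM in control to 10.9 in shRBM15#1 and 8.89 in shRBM15#2 (log2 fold change 3.23 ± 0.42, adjusted p = 0.0099, edgeR). Fitted changes were above 0 in 15 and below 0 in 7, with a median of 0.62. Of 19 genes of progenitors and other myeloid cells, 16 were tested and 1 was called, which is 6.25% against 0.346% of all genes. CTSG, a granule protease of neutrophils, fell from 95.8 CPM to 3.73 and 8.55 (log2 fold change -3.96 ± 0.41, adjusted p = 0.0043, edgeR). GFI1, the relative of GFI1B, was also lower at an adjusted p under 0.05, with 71.5, 21.1 and 31.4 CPM (log2 fold change -1.44 ± 0.28, adjusted p = 0.043, edgeR), and was named after its value was seen. Fitted changes in this list of progenitor and myeloid genes were above 0 in 9 and below 0 in 7, with a median of 0.28.

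Among 27 partners and cofactors, all tested, none was called at an adjusted p under 0.01 in edgeR, against 5 at an unadjusted p under 0.05 (18.5%, with 18.8% of all genes) and 1 at an adjusted p under 0.01 in DESeq2 (3.70%, with 2.166% of all genes). Of them, 10 fitted changes were above 0 and 17 below 0, and the median was -0.18. The smallest p belonged to ID2, an inhibitor of basic helix-loop-helix factors, with 18.5, 50.5 and 57.8 CPM (log2 fold change 1.55 ± 0.27, adjusted p = 0.027, edgeR). RUNX1, a partner of GATA1 in megakaryocytes, had 128 CPM in control, 57.6 in shRBM15#1 and 70.5 in shRBM15#2 (log2 fold change -0.998 ± 0.23, adjusted p = 0.078, edgeR). The lists overlap with genes already known from earlier results of these libraries to have moved, so their counts are descriptions.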

How the data were processed

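RNA-seq was done on 3 MEG-01 libraries and RIP-seq on 4. The RNA-seq files hold the raw counts that the authors deposited for each exon bin of Ensembl GRCh37.70, after alignment of unstranded reads with STAR to GRCh37. The submitters' processing notes list HTSeq 0.6.0 among their tools, without saying which step used it. For the RIP-seq, the authors aligned reads to hg19, called peaks on all samples with a Gaussian filter (bandwidth 300), and deposited counts within 1515 sites with an FDR under 5% in DESeq. Columns of the authors' own comparisons (fold changes, p-values, adjusted p-values) were not used.

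Lines naming no gene (23.2% to 32.0% of reads) and 809 wrapped lines of the bin table were left out. Bin counts were summed per gene and tested with edgeR 4.0.16 (TMM, quasi-likelihood, at least 30 reads, R 4.3.3), and bins with diffSpliceDGE. The SE of a bin is its absolute change over the normal quantile of its p. DESeq2 1.42.0, size factors, other filters and leaving out each line were the alternatives. The models were tested on simulated data. Shares carry Wilson intervals. Sequences were read from the GRCh37 genome, and promoter windows from a RefSeq GRCh38.p14 table matched letter by letter to GRCh37. Annotation was GENCODE lifted to GRCh37, and 54481 genes had a symbol.

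The regulators and the gene lists were chosen with earlier results of these data known. Named genes were the 10 regulators, RBM15, in each list the genes called at an adjusted p under 0.01 (at most 6) or else the 2 with the smallest p, and the 3 genes most like HEMGN. The rule for bins named the called ones, GATA1 exon 2 and those near the TAL1 site; the other bins given were chosen after their values were seen. The labels do not say whether the RNA-seq libraries are separate cultures.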

Additional observations from a re-analysis of the deposited data

How the results depend on the processing

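At an adjusted p under 0.01, HEMGN was the only regulator called under size factors, with at least 1 read and under DESeq2. It was also the only one at an adjusted p under 0.05 in the main edgeR fit. With at least 300 reads the count was 0 (adjusted p of HEMGN = 0.018 in edgeR). At an adjusted p under 0.05, GFI1B also passed with at least 1 read (0.033, edgeR) and under DESeq2 (0.030). KLF1 passed that limit under DESeq2 (0.036). Over all genes, 86 were called, against 191 under size factors, 801 with at least 1 read, 539 under DESeq2 and 432 at an adjusted p under 0.05, while 0 of 12994 were called with at least 300 reads, where 2938 had an unadjusted p under 0.05. The share of calls that were higher was 19.8%, and 27.7%, 34.3% and 37.3% under size factors, with at least 1 read and under DESeq2. With at least 1 read the median of all genes was 0.44 on the log2 scale. GATA1 turned to 0.0032 with at least 300 reads, and GATA2 to -0.014 with at least 1 read. With 1 knockdown line left out, no test was possible, and the log2 fold change was 1.70 or 0.79 for GFI1B, -0.51 or -0.99 for LYL1 and 3.75 or 3.87 for HEMGN, without shRBM15#1 and without shRBM15#2. Of all bins, 3392 were called, against 8733 with at least 1 read, 736 with at least 300 reads and 5174 under the DEXSeq-type model. Of the regulators' bins 5 were called, against 6 with at least 1 read (LMO2 bin 8 in addition), 7 under the DEXSeq-type model (LMO2 bins 7 and 8 in addition), 5 under size factors, 2 with at least 300 reads (TAL1 bins 16 and 17) and 0 at an adjusted p under 0.05. The share of GATA1 exon 2 in the knockdown lines was -1.61 to -1.51 percentage points from the control with either line left out, and -1.60 over coding bins. The cause of these changes was not tested. No paired analysis was possible because there is 1 control library. Depth limits ZFPM1, for which 8 of 18 bins were under 30 reads.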

Other observations

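Partners and cofactors of these regulators also carried RIP-seq sites, which the comparisons did not use. Of 27 such genes, 7 carried 10 sites. The share of all genes with a site and the share of all sites in 3′UTRs were not counted, so no preference is drawn from the counts given here. KDM1A, HDAC1, HDAC2, CHD4 and RBBP7, which are subunits of histone-modifying and chromatin-remodelling complexes, each had 1 site, and all 5 were annotated to a 3′UTR. The corepressor CBFA2T3 had 2 sites and the transcription factor RUNX1 had 3. Both sites of CBFA2T3 and 1 of RUNX1 were in introns, and the other RUNX1 sites were in a 5′UTR and a 3′UTR. The intronic CBFA2T3 site at chr16:88982361-88982898 had 59 and 2993 reads in the libraries labelled normal IgG and 44 and 4267 in those labelled RBM15 antibody, above every site of the 10 regulators in each of the 4 libraries. The intronic RUNX1 site at chr21:36347907-36348295 had 22, 303, 18 and 333 reads in the same order. Among the other lists, single sites were found in ANK1 of 38 erythroid genes, PLEK of 27 megakaryocyte genes, and FLI1 and ERG of 19 progenitor and myeloid genes, all in introns.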
